A study of Homo sapiens with 40 samples.

Results

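HUWE1, FBXW7, SKP2, FBXO28, USP28, USP36 and CIP2A encode ubiquitin ligases, deubiquitinases and an inhibitor protein that set how long the MYC protein lasts. These 7 genes were taken by name out of 63152 genes with an Ensembl identifier in the count tables. No cut on their measured values was used, but earlier results of these data were known. Their RNA was followed in U2OS cells, a human osteosarcoma line with a stable MYC TetOn system, in which doxycycline switches on an added MYC gene. The cells were infected with a pGIPZ vector that carries a short hairpin RNA and were kept in puromycin at 0.2 µg/ml. The hairpins were number 3 or 5 against CTR9 (shCTR9), number 3 or 4 against CDC73 (shCDC73), or the control labelled shNTC, and both targets belong to the PAF1 complex, which accompanies elongating RNA polymerase II. Cells then received doxycycline at 1 µg/ml (Dox) or ethanol (EtOH) for 24 h. The 5 hairpin states and 2 treatments make 10 groups of 4 libraries, 40 libraries in all. Every group carries the TetOn construct and a hairpin vector, and no uninfected cells or cells without the construct were analysed here, so an effect of doxycycline itself cannot be told apart from that of MYC.

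MYC is a short-lived transcription factor. Ubiquitin ligases attach ubiquitin to it and mark it for the proteasome, and deubiquitinases take the ubiquitin off. FBXW7 and SKP2 are F-box proteins, the parts of SCF ligases that pick the substrate. FBXW7 recognises MYC that has been phosphorylated in a short stretch called the phosphodegron, whereas SKP2 and FBXO28 have been described as ligases that can also promote the activity of MYC as a transcription factor. HUWE1 is a very large ligase of the HECT class with MYC and MCL1 among its substrates. USP28 removes ubiquitin that FBXW7 has placed, USP36 does so in the nucleolus, and CIP2A restrains the phosphatase PP2A, which otherwise helps to expose MYC to FBXW7. Only RNA was measured here, so nothing below gives the amount or activity of these proteins or of MYC protein.

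Levels are given as CPM, the usual scaling of a gene's reads to the total of its library. Library totals ran from 877323 to 1532617 counts, and 3 counts, the most that a count of 0 allows, equal 1.96 CPM in the deepest and 3.42 CPM in the shallowest library, for counting error only. MYC RNA averaged 14950 ± 667 CPM in Dox against 509 ± 68.2 CPM in EtOH in shNTC cells (SD, n = 4 each). CTR9 was at 25.2% of the shNTC level in shCTR9 cells in Dox and at 27.4% in EtOH, and CDC73 was at 27.4% in shCDC73 cells in Dox and at 23.0% in EtOH, and the knockdown libraries did not overlap the shNTC libraries of their treatment. In Dox, MYC RNA was at 69.7% of the shNTC level in shCTR9 cells and at 63.1% in shCDC73 cells. In EtOH it was higher, at 119.9% in shCTR9 cells and 116.1% in shCDC73 cells, with overlapping libraries. Both EtOH differences passed the edgeR test described below (adjusted p = 0.00107 and 0.00593), but they depended on the hairpin. In EtOH, MYC averaged 677 ± 44.1 CPM with shCTR9 hairpin 3 and 549 ± 30.6 CPM with hairpin 5. With shCDC73 it averaged 666 ± 55.7 CPM with hairpin 3 and 524 ± 30.3 CPM with hairpin 4. The hairpin 4 libraries, at 482.5 to 554.2 CPM, lay within the range of the shNTC libraries, at 441.2 to 568.2 CPM. CTR9 RNA was 2.26-fold higher in shCDC73 than in shNTC cells in EtOH and 1.89-fold higher in Dox. Of the fixed mesenchymal markers 6 of 7 passed the filter on low counts, summing to 852 to 2087 CPM per library, 3 of 6 epithelial markers passed (182 to 482 CPM), and the 6 blood markers summed to 0 to 2.23 CPM. The mesenchymal markers moved with the conditions: with Dox in shNTC cells 4 of the 6 fell (median -0.74), in shCTR9 cells in EtOH 4 fell and 1 rose, and in shCDC73 cells in EtOH 3 fell and 1 rose. Of all genes tested 8.93% fell with Dox in shNTC cells. In EtOH 22.4% fell and 23.2% rose in shCTR9 cells, and 24.6% fell and 24.4% rose in shCDC73 cells. The part of these markers in the results was not tested. In 3 libraries short transcripts were read more than in the others, as described beside HUWE1. In bulk RNA, fewer cells that express a gene and less of its RNA per cell cannot be told apart.

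All 7 genes passed the filter, which kept 12557 genes. Set per kilobase of exon, so that genes can be compared, SKP2 was at 46.8 ± 5.04 CPM per kb in EtOH shNTC cells (SD, n = 4), CIP2A at 29.5 ± 1.71, USP36 at 23.6 ± 1.07 and HUWE1 at 21.6 ± 4.63. FBXO28 stood at 9.26 ± 1.09, USP28 at 7.12 ± 0.963 and FBXW7 at 3.03 ± 0.0915 CPM per kb. SKP2 was thus the most abundant of the 7 RNAs and FBXW7 the least, and USP36 and HUWE1 did not differ beyond their spread. In Dox shNTC cells USP36 reached 38.5 ± 1.22 CPM per kb and came after SKP2, at 43.9 ± 4.31, in the order of means. FBXW7 had the lowest mean, at 5.24 ± 0.560, next to USP28 at 6.01 ± 1.88. Libraries of SKP2 and USP36 overlapped there, as did those of FBXW7 and USP28. Per library, in CPM without the length, the 7 genes ranged over the 40 libraries from 10.4 CPM (USP28) to 460 CPM (HUWE1).

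**Figure D1:**
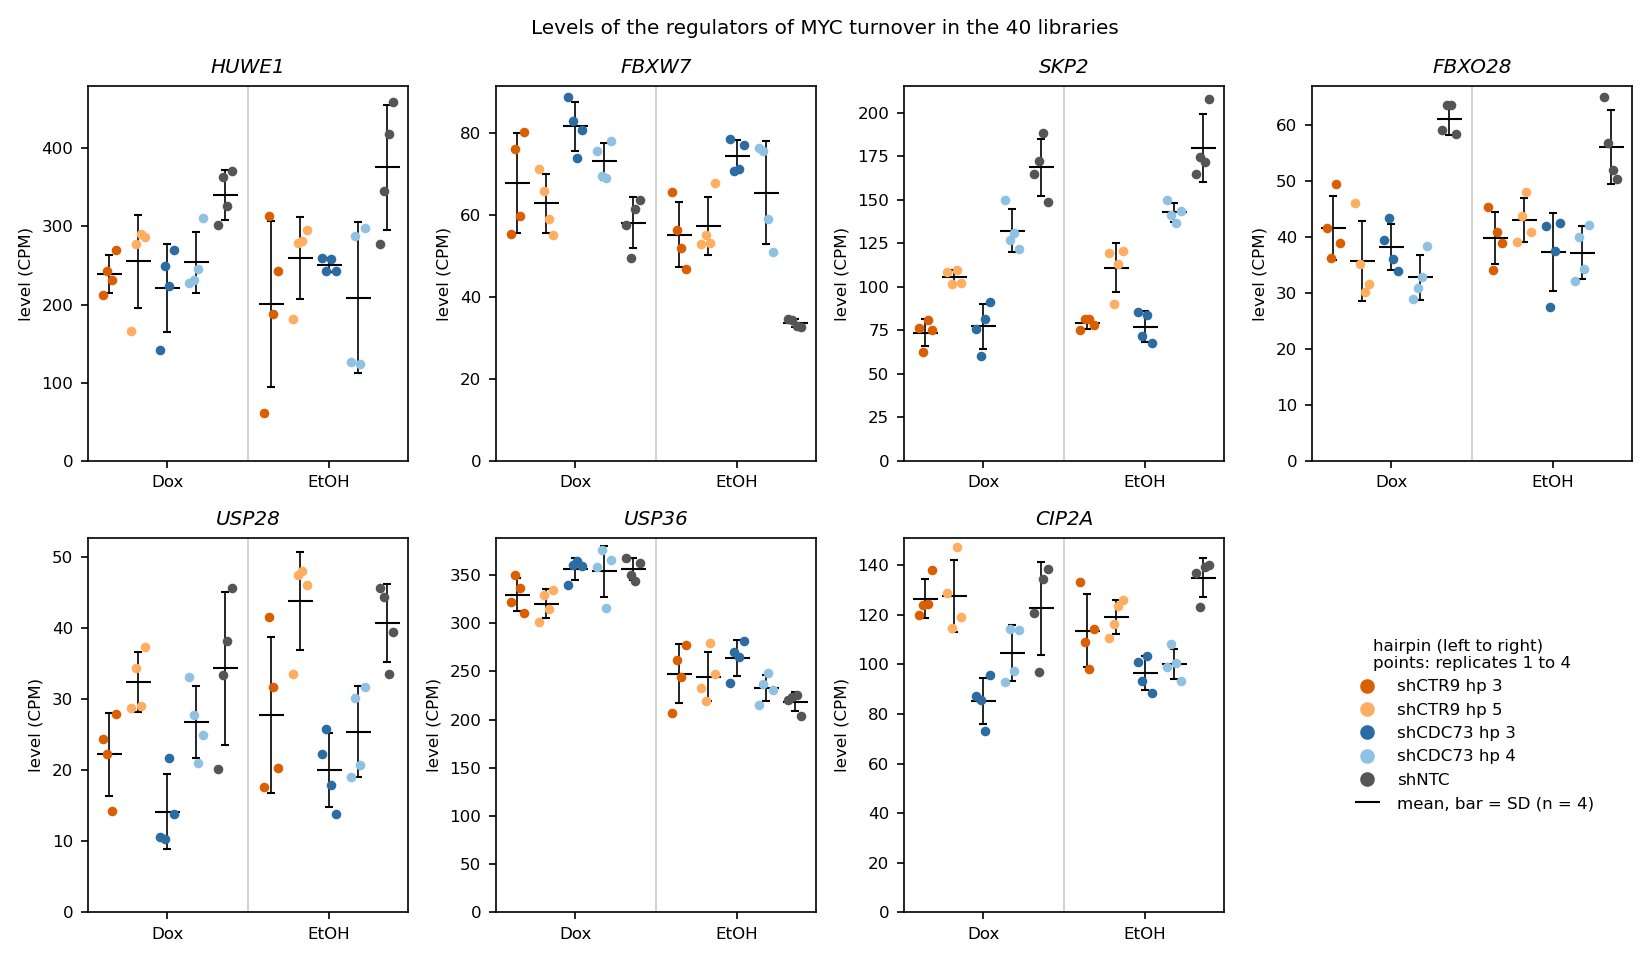
Level of each gene in CPM (vertical axis, from 0) in the 40 libraries, Dox groups left and EtOH groups right, with points for replicates 1 to 4 from left to right, a horizontal mark for the mean and a bar for the SD (n = 4). FBXW7 is lowest in EtOH shNTC cells, at 33.7 ± 1.02 CPM, USP36 separates by treatment, and SKP2 and FBXO28 are highest in the shNTC groups.

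With Dox, FBXW7 and USP36 rose in shNTC cells, and no other of the 7 genes passed the test. Changes are log2 fold changes ± standard error. The words rise and fall are kept for genes with an adjusted p under 0.05 in edgeR's quasi-likelihood test, with Benjamini-Hochberg adjustment over all 12557 genes. With Dox in shNTC cells 2 of the 7 genes rose, where 8.49% of all genes tested rose, 8.93% fell and 17.4% were called in either direction. The median change of the 7 was -0.09, against -0.01 over all genes tested. Nothing in the labels ties the 4 libraries of a group to separate cultures, so the p-values measure the spread between libraries, which may be technical.

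FBXW7 had 57.5, 49.6, 61.6 and 63.8 CPM in the Dox shNTC libraries, against 34.6, 34.5, 32.9 and 32.7 CPM in the EtOH shNTC libraries. The groups did not overlap, and the EtOH libraries were tightly grouped. The rise was 0.79 ± 0.14 (adjusted p = 7.29e-05), a 1.72-fold difference. With Dox within the knockdowns FBXW7 did not pass, at 0.22 ± 0.10 with CTR9 lowered (adjusted p = 0.104) and 0.15 ± 0.09 with CDC73 lowered (adjusted p = 0.278). Its level with EtOH was already higher there, as given below, and MYC RNA in Dox was lower there, as given above, and the part of either in this result was not tested. The difference between the Dox responses was itself tested. It was -0.57 ± 0.17 for shCTR9 minus shNTC (adjusted p = 0.142) and -0.64 ± 0.17 for shCDC73 minus shNTC (adjusted p = 0.0801), comparisons that share the shNTC libraries. With the within-group slope on transcript length as a covariate, described beside HUWE1, both passed, at -0.56 (adjusted p = 0.0490) and -0.64 (adjusted p = 0.0123). The second also passed without EtOH shCDC73 hairpin 4 replicate 4 (-0.69, adjusted p = 0.0314). Without the 3 libraries that favour short transcripts the rise in shCTR9 cells passed (0.27, adjusted p = 0.0371). Over all genes 0.597% and 0.47% were called in these differences (0.199% and 0.151% lower, 0.398% and 0.319% higher). By edgeR and DESeq2 alike none of the 7 was called, while 3 and 1 of the 7 had an unadjusted p under 0.05.

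USP36 rose with Dox in every hairpin state. It had 368, 350, 343 and 362 CPM in Dox and 220, 224, 225 and 204 CPM in EtOH in shNTC cells, a rise of 0.70 ± 0.08 (adjusted p = 1.16e-08). In shCTR9 cells the 8 Dox libraries lay at 301 to 350 CPM and the 8 EtOH libraries at 207 to 279 CPM, and the rise was 0.40 ± 0.06 (adjusted p = 1e-06). In shCDC73 cells the ranges were 316 to 376 CPM in Dox and 215 to 282 CPM in EtOH, with a rise of 0.52 ± 0.06 (adjusted p = 2.39e-09). Within each hairpin state no Dox library overlapped an EtOH library, and the call held with each hairpin alone. It was the only one of the 7 genes to rise in shCTR9 and in shCDC73 cells, where 9.29% of all genes rose in each comparison, 9.05% and 8.24% fell, and 18.3% and 17.5% were called in either direction. The Dox response in shCTR9 minus that in shNTC cells was -0.30 ± 0.10, which did not pass (adjusted p = 0.205). It passed without the 3 libraries that favour short transcripts (-0.34, adjusted p = 0.0355) and with the within-group slope as a covariate (-0.31, adjusted p = 0.0177).

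**Figure D2:**
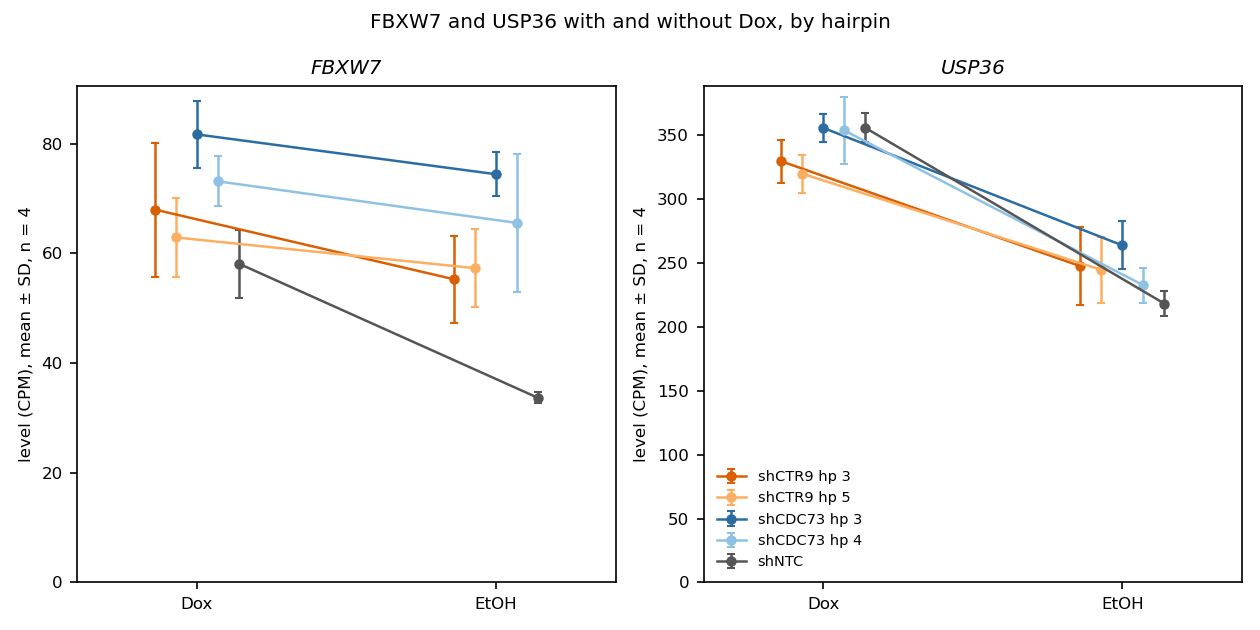
FBXW7 (left) and USP36 (right) in Dox and EtOH, as the mean level in CPM with its SD (n = 4) for each hairpin, joined by a line. The line of FBXW7 is steepest in shNTC cells, where it averaged 58.1 CPM in Dox and 33.7 CPM in EtOH, whereas USP36 is higher in Dox with each hairpin.

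MYC with its partner MAX binds the E-box letters CACGTG, so the promoters of the 7 genes were searched for them. RefSeq (GRCh38.p14) gives 13 start windows for the 7 genes, each of 250 bases before and 50 bases after the start, among them 4 for FBXW7, 3 for HUWE1 and 2 for USP36. The motif reads the same on both strands. It was found in 2 of the 13 windows, once in USP36 and once in USP28, and in 7.26% of 35116 windows of all genes. These 2 promoters are shown because they hold the motif and their genes differ in the response to Dox. The 250 bases before the start are given 5′ to 3′ on the strand of the gene, with the motif in capitals. They lie at chr17:78840815-78841064 (minus strand) for USP36 and chr11:113875573-113875822 (minus strand) for USP28.
USP36: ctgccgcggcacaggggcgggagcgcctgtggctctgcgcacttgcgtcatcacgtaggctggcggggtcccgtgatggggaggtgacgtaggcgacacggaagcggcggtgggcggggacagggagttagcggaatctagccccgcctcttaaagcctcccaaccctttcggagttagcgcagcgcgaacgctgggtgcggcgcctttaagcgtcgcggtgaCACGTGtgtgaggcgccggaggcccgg
USP28: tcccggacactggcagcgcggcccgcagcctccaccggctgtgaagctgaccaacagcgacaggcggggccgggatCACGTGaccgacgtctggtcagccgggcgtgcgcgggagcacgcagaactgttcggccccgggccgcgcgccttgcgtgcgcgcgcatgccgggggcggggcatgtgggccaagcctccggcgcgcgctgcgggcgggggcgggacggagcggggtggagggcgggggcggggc
The motif starts 27 bases before the start of USP36, which rose with Dox, and 174 bases before that of USP28, which did not pass the test with Dox in any hairpin state. FBXW7, which rose with Dox in shNTC cells, had no such letters in its windows. Among tested genes with a window, 13.73% (159 of 1158) of those with the motif rose with Dox in shNTC cells and 8.05% (627 of 7788) of those without it. These are matches of letters, and binding was not measured.

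The remaining 5 genes did not pass the test with Dox in any hairpin state. In shNTC cells the changes were -0.14 ± 0.29 for HUWE1 (adjusted p = 0.798), -0.09 ± 0.10 for SKP2 (adjusted p = 0.599), 0.13 ± 0.13 for FBXO28 (adjusted p = 0.579), -0.25 ± 0.21 for USP28 (adjusted p = 0.470) and -0.14 ± 0.10 for CIP2A (adjusted p = 0.413). For SKP2 the Dox libraries had 165, 173, 189 and 149 CPM and the EtOH libraries 165, 175, 172 and 208 CPM, so the groups overlapped. USP28 was lower on average in Dox in each state, by 0.37 ± 0.16 in shCTR9 cells (adjusted p = 0.109). That value passed without the 3 libraries that favour short transcripts (-0.45, adjusted p = 0.0192), without EtOH shCTR9 hairpin 3 replicate 1 alone (-0.46, adjusted p = 0.0395), with replicate 1 of all groups left out (-0.50, adjusted p = 0.0280) and with the within-group slope as a covariate (-0.39, adjusted p = 0.0137).

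SKP2 and FBXO28 fell in both knockdowns, FBXW7 rose in both in EtOH, and with CDC73 lowered USP28 and CIP2A fell as well. In shCTR9 cells 1 of the 7 genes rose and 3 fell in EtOH, and 2 fell in Dox. In shCDC73 cells 2 rose and 5 fell in EtOH, and 1 rose and 4 fell in Dox. The background was high. In EtOH 45.6% of all genes were called in shCTR9 cells (23.2% higher and 22.4% lower) and 49% in shCDC73 cells (24.4% higher and 24.6% lower). In Dox 41.8% were called in shCTR9 cells (21.1% higher and 20.6% lower) and 44.9% in shCDC73 cells (22.2% higher and 22.7% lower). The median change of the 7 was -0.21 and -0.33 in shCTR9 cells and -0.58 and -0.52 in shCDC73 cells, in EtOH and in Dox in that order, where the medians of all genes tested lay between 0.01 and 0.02. The knockdowns share their shNTC libraries, so their falls and rises are not independent of each other.

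**Figure D3:**
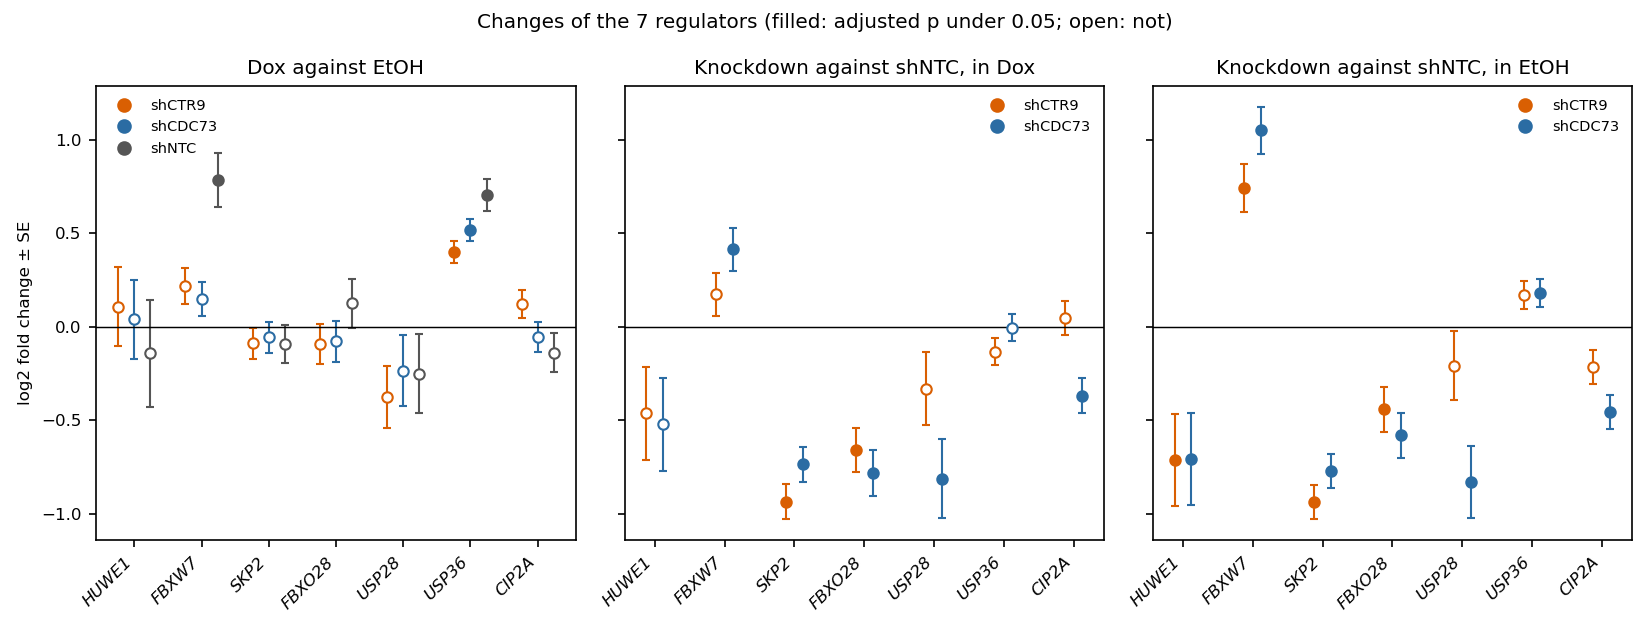
Log2 fold change with its standard error (vertical axis) of the 7 genes for Dox against EtOH within each hairpin state, and for each knockdown (both hairpins averaged) against shNTC cells in Dox and in EtOH. Filled points have an adjusted p under 0.05. FBXW7 is 1.05 higher in shCDC73 cells in EtOH, and SKP2 and FBXO28 are below 0 in the 4 knockdown comparisons.

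SKP2, the F-box protein that also drives the cell cycle by degrading the inhibitor p27, fell in the 4 knockdown comparisons. In EtOH it had 75.0, 81.5, 81.7 and 77.8 CPM with shCTR9 hairpin 3, 119, 90.4, 113 and 121 CPM with shCTR9 hairpin 5, and 165, 175, 172 and 208 CPM with shNTC. With CDC73 lowered in EtOH it had 85.7, 71.6, 83.9 and 67.6 CPM with hairpin 3 and 150, 141, 137 and 143 CPM with hairpin 4. In EtOH the 16 knockdown libraries were all lower than the 4 shNTC libraries, and in Dox 1 library of shCDC73 hairpin 4, at 149.7 CPM, reached above the lowest shNTC library, at 148.8 CPM. The falls in EtOH were -0.94 ± 0.09 with shCTR9 (adjusted p = 4.13e-12) and -0.77 ± 0.09 with shCDC73 (adjusted p = 6.08e-10), which is 52.2% and 58.6% of the shNTC level. In Dox they were -0.93 ± 0.09 (adjusted p = 8.66e-12) and -0.74 ± 0.09 (adjusted p = 4.08e-09). Each passed with each hairpin alone. SKP2 was among the 188 genes with the smallest p in shCTR9 cells in EtOH and among the 517 with the smallest p in all 4 comparisons.

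The hairpins against 1 target did not lower SKP2 alike. It was higher with shCDC73 hairpin 4 than with hairpin 3, by 0.89 ± 0.11 in EtOH (adjusted p = 5.07e-08) and 0.78 ± 0.11 in Dox (adjusted p = 3.04e-06), with no overlap of the libraries. In these comparisons 31.2% and 13% of all genes were called, in EtOH 16.4% higher and 14.8% lower and in Dox 5.86% higher and 7.1% lower. The fall against shNTC was correspondingly -0.33 ± 0.10 with hairpin 4 and -1.22 ± 0.11 with hairpin 3 in EtOH (adjusted p = 0.00968 and 3.82e-13). CDC73 itself stood at 8.20 ± 2.67 CPM with hairpin 4 and 8.03 ± 1.44 CPM with hairpin 3 in EtOH (SD, n = 4). In Dox it stood at 9.57 ± 4.2 CPM with hairpin 4 and 6.58 ± 2.6 CPM with hairpin 3, and all these values rest on few reads. The part of the depth of knockdown in the difference of SKP2 was not tested. Of 15 S phase genes tested, 9 were higher with hairpin 4 than with hairpin 3 in EtOH, and their summed level was 3094 to 3660 CPM with hairpin 4 and 2678 to 2932 CPM with hairpin 3. Of the 6 mesenchymal markers 5 were higher and 1 lower with hairpin 4 in EtOH. The part of either list in the difference of SKP2 was not tested. For CTR9, SKP2 was higher with hairpin 5 than with hairpin 3, by 0.49 ± 0.12 in EtOH (adjusted p = 0.0307) and 0.52 ± 0.12 in Dox (adjusted p = 0.0311), where 0.589% and 0.279% of all genes were called, in EtOH 0.175% higher and 0.414% lower and in Dox 0.0876% higher and 0.191% lower. In both treatments the 4 hairpin 5 libraries lay above the 4 hairpin 3 libraries. The EtOH call ended without replicate 1, 3 or 4 of hairpin 3 (adjusted p = 0.0880, 0.0566 and 0.0667) or of hairpin 5 (adjusted p = 0.0812, 0.0881 and 0.117). The Dox call ended without replicate 1, 2 or 4 of hairpin 3 (adjusted p = 0.0766, 0.201 and 0.0771) or any of the 4 replicates of hairpin 5 (adjusted p = 0.109, 0.0658, 0.0902 and 0.0616), with the size of the difference between 0.44 and 0.54 throughout.

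FBXO28, an F-box protein that ubiquitylates MYC, fell in all 4 comparisons without an overlap of libraries. In Dox it had 41.5, 36.2, 49.4 and 38.9 CPM with shCTR9 hairpin 3, 45.9, 35.2, 30.2 and 31.6 CPM with hairpin 5, and 58.9, 63.5, 63.4 and 58.3 CPM with shNTC. The fall with shCTR9 was -0.66 ± 0.12 in Dox (adjusted p = 1.31e-05) and -0.44 ± 0.12 in EtOH (adjusted p = 0.00221). In shCDC73 cells its 8 libraries lay at 28.9 to 43.3 CPM in Dox and at 27.5 to 42.5 CPM in EtOH, and the EtOH shNTC libraries had 65.0, 56.7, 51.9 and 50.3 CPM. There the fall was -0.78 ± 0.12 in Dox (adjusted p = 6.37e-07) and -0.58 ± 0.12 in EtOH (adjusted p = 8.11e-05). FBXO28 passed with each hairpin alone in each comparison. Each library name carries a letter A or B of unstated meaning, and with the libraries of letter B only the falls in EtOH did not pass (-0.29, adjusted p = 0.202 with shCTR9, and -0.37, adjusted p = 0.0888 with shCDC73).

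FBXW7 moved the other way. In EtOH it had 65.7, 56.3, 52.1 and 46.9 CPM with shCTR9 hairpin 3 and 53.1, 55.2, 53.2 and 67.8 CPM with hairpin 5. With shCDC73 hairpin 3 it had 78.6, 70.8, 71.2 and 77.2 CPM, and with hairpin 4 it had 76.3, 75.8, 59.1 and 51.0 CPM, against 34.6, 34.5, 32.9 and 32.7 CPM with shNTC. Every one of the 16 knockdown libraries in EtOH lay above every shNTC library. The rise was 0.74 ± 0.13 with shCTR9 (adjusted p = 5.39e-06) and 1.05 ± 0.13 with shCDC73 (adjusted p = 1.22e-09). In Dox it was 0.42 ± 0.11 in shCDC73 cells (adjusted p = 0.00259; with letter B only 0.27, adjusted p = 0.223) and 0.17 ± 0.12 in shCTR9 cells, which did not pass (adjusted p = 0.232). FBXW7 thus rose with Dox in shNTC cells and with either knockdown in EtOH. All these rises are set against the same EtOH shNTC libraries, so they are not independent of each other. The differences between the Dox responses use those libraries too. The deposited counts are per gene, so the transcripts that start at its 4 RefSeq promoters cannot be told apart.

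HUWE1 was lower on average in both knockdowns, but its libraries spread more than those of nearly any other gene. Its biological coefficient of variation was 29.1%, and 99.3% of the genes tested had a lower one. In EtOH it had 61.1, 312.8, 187.9 and 242.3 CPM with shCTR9 hairpin 3, 181.1, 278.8, 281.1 and 295.5 CPM with hairpin 5, and 277.7, 345.4, 418.6 and 459.6 CPM with shNTC. With shCDC73 hairpin 3 it had 259.0, 243.1, 257.7 and 242.8 CPM, and with hairpin 4 it had 126.6, 287.6, 123.4 and 297.8 CPM. Some libraries of shCTR9 hairpins 3 and 5 and of shCDC73 hairpin 4 reached above the lowest shNTC library, at 277.7 CPM, whereas the 4 libraries of shCDC73 hairpin 3 all lay below it. The lowest values were in 1 library of shCTR9 hairpin 3 and 2 of shCDC73 hairpin 4. The falls in EtOH were -0.71 ± 0.25 with shCTR9 (adjusted p = 0.0185) and -0.71 ± 0.25 with shCDC73 (adjusted p = 0.0180). In Dox the changes were -0.46 ± 0.25 (adjusted p = 0.138) and -0.52 ± 0.25 (adjusted p = 0.0883). In Dox all 8 shCTR9 libraries, at 166.5 to 290.4 CPM, lay below the 4 shNTC libraries, at 301.9 to 370.7 CPM, as did 7 of the 8 shCDC73 libraries.

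The spread of HUWE1 moved with a property of the libraries. HUWE1 has 17.38 kb of exons, and 1.91% of the tested genes have more, where the median is 4.93 kb. For each library the slope over 8380 genes of the log2 deviation from the median library on log2 exon length was taken, and a negative slope means more reads from short transcripts. The lowest slopes were -0.248 for replicate 3 and -0.194 for replicate 1 of shCDC73 hairpin 4 with EtOH and -0.229 for replicate 1 of shCTR9 hairpin 3 with EtOH. These are the 3 libraries with the lowest HUWE1, and the slopes of the other 37 lay between -0.104 and 0.0604. The libraries next in order of HUWE1, Dox shCDC73 hairpin 3 replicate 1 with 142.2 CPM and Dox and EtOH shCTR9 hairpin 5 replicate 1 with 166.5 and 181.1 CPM, had slopes of -0.104, -0.0599 and -0.0521. Without the 3 libraries the change of HUWE1 in EtOH was -0.57 with shCTR9 and -0.47 with shCDC73 (adjusted p = 0.00468 and 0.0221), and that in Dox was -0.47 and -0.53 (adjusted p = 0.0165 and 0.00772). The slope used as a covariate was a within-group slope, taken against the median of the library's own group. It does not adjust for slopes that differ between groups. With it the values were -0.69 and -0.78 in EtOH (adjusted p = 4.13e-08 and 3.32e-09) and -0.48 and -0.53 in Dox (adjusted p = 3.51e-05 and 6.59e-06). In both settings all 4 passed. The calls in EtOH ended without replicate 3 of the EtOH shNTC libraries (adjusted p = 0.0584 with shCTR9 and 0.0572 with shCDC73) or without their replicate 4 (adjusted p = 0.0765 and 0.0753), and with shCTR9 hairpin 5 alone (-0.54, adjusted p = 0.155) or shCDC73 hairpin 3 alone (-0.58, adjusted p = 0.0929). They also ended with replicate 3 of all groups left out (adjusted p = 0.121 and 0.177) or replicate 4 (adjusted p = 0.0881 and 0.0838).

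**Figure D4:**
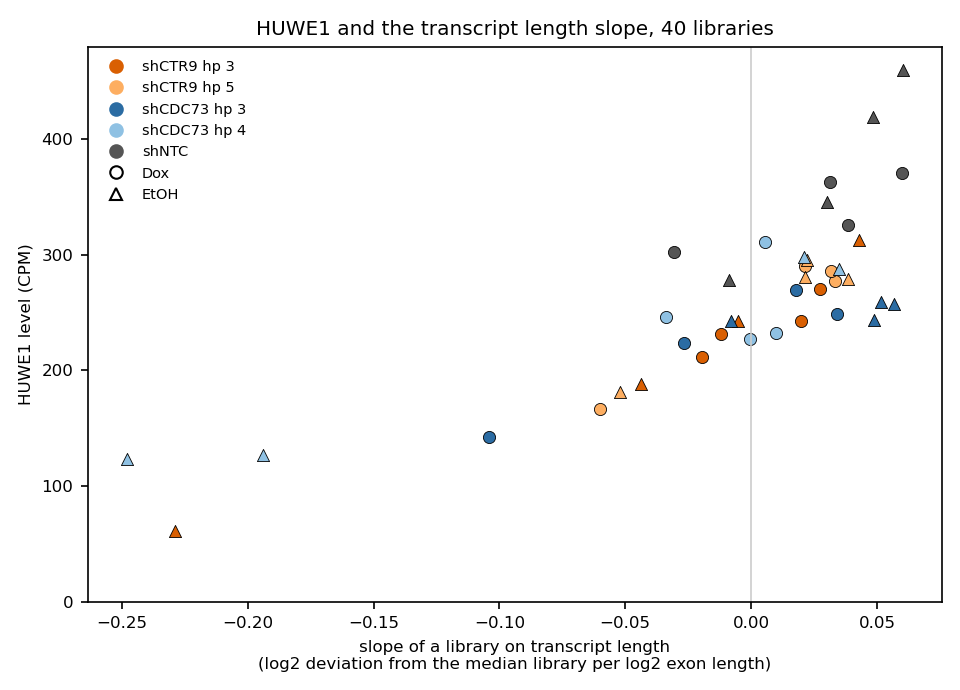
HUWE1 level in CPM (vertical axis, from 0) against the slope of each library on transcript length (horizontal axis) for the 40 libraries, coloured by hairpin, with circles for Dox and triangles for EtOH. The 3 libraries at the left, with slopes of -0.248, -0.229 and -0.194, have 123.4, 61.1 and 126.6 CPM, and the 8 shNTC libraries have 277.7 to 459.6 CPM.

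USP28, the deubiquitinase that acts on substrates of FBXW7, fell with CDC73 lowered. In EtOH the shCDC73 libraries had 22.3, 25.8, 18.0 and 13.9 CPM with hairpin 3 and 19.1, 30.2, 20.7 and 31.8 CPM with hairpin 4, against 45.6, 44.4, 33.5 and 39.4 CPM with shNTC. The groups did not overlap, and the fall was -0.83 ± 0.19 (adjusted p = 0.000363), also called with each hairpin alone. In Dox the fall was -0.81 ± 0.21 (adjusted p = 0.00141), with overlapping libraries, and with hairpin 4 alone it was -0.33 (adjusted p = 0.301) and with replicate 4 of all groups left out it did not pass (adjusted p = 0.0552). In shCTR9 cells the changes were -0.21 ± 0.18 in EtOH (adjusted p = 0.367) and -0.33 ± 0.20 in Dox (adjusted p = 0.180). The Dox value passed without Dox shNTC replicate 1, which had 20.1 CPM where the other Dox shNTC libraries had 33.4 to 45.7 CPM (-0.53, adjusted p = 0.0317), with replicate 1 of all groups left out (-0.53, adjusted p = 0.0258) and with hairpin 3 alone (-0.60, adjusted p = 0.0406). With Dox, USP28 was 0.97 ± 0.28 higher with shCDC73 hairpin 4 than with hairpin 3 (adjusted p = 0.0156), a call that ended without Dox shCDC73 hairpin 3 replicate 1 or 2 (adjusted p = 0.0621 and 0.0624) or hairpin 4 replicate 1 (adjusted p = 0.0666). The counts behind these values are small, at 62 in the library with most USP28 reads.

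USP36, which rose with Dox, changed little with the knockdowns. In shCDC73 cells in EtOH it was 0.18 ± 0.07 higher (adjusted p = 0.0372), at 215 to 282 CPM against 204 to 225 CPM with shNTC. This call ended with hairpin 4 alone (0.09, adjusted p = 0.420), without EtOH shCDC73 hairpin 3 replicate 2 or 4 (adjusted p = 0.0541 and 0.0692) or hairpin 4 replicate 2 or 3 (adjusted p = 0.0521 and 0.0666), and without replicate 1, 2 or 4 of the EtOH shNTC libraries (adjusted p = 0.0645, 0.0523 and 0.130). In shCTR9 cells in EtOH the change was 0.17 ± 0.07 (adjusted p = 0.0533). It passed without EtOH shCTR9 hairpin 3 replicate 1 (adjusted p = 0.0166), without hairpin 5 replicate 1 or 2 (adjusted p = 0.0477 and 0.0300) and with replicate 1 of all groups left out (adjusted p = 0.0270). In Dox the changes were -0.13 ± 0.07 with shCTR9 (adjusted p = 0.129) and -0.004 ± 0.07 with shCDC73 (adjusted p = 0.970).

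CIP2A, the inhibitor of PP2A, fell with CDC73 lowered. In EtOH it had 101, 93.2, 103 and 88.5 CPM with shCDC73 hairpin 3 and 98.9, 108, 101 and 93.1 CPM with hairpin 4, against 137, 123, 139 and 140 CPM with shNTC. No library overlapped, and the fall was -0.45 ± 0.09 (adjusted p = 5.09e-05). In Dox it was -0.37 ± 0.09 (adjusted p = 0.00116), with 73.0 to 114 CPM in shCDC73 cells and 96.9 to 139 CPM in shNTC cells, and with hairpin 4 alone it was -0.22 and did not pass (adjusted p = 0.120). In shCTR9 cells the changes were -0.21 ± 0.09 in EtOH (adjusted p = 0.0511) and 0.05 ± 0.09 in Dox (adjusted p = 0.710). The EtOH value passed without EtOH shCTR9 hairpin 3 replicate 1 (-0.26, adjusted p = 0.0154), hairpin 5 replicate 4 (-0.23, adjusted p = 0.0464) or EtOH shNTC replicate 2 (-0.25, adjusted p = 0.0379).

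Set against each other, the knockdowns differed for CIP2A in both treatments, and for USP28 and FBXW7 in EtOH. In Dox CIP2A had 120, 124, 125 and 138 CPM with shCTR9 hairpin 3 and 129, 115, 147 and 119 CPM with hairpin 5. With shCDC73 it had 87.1, 85.6, 73.0 and 95.6 CPM for hairpin 3 and 92.7, 114, 97.2 and 114 CPM for hairpin 4. The lowest shCTR9 library, at 114.5 CPM, and the highest shCDC73 library, at 114.4 CPM, all but touched. The difference, shCTR9 minus shCDC73, was 0.42 ± 0.08 (adjusted p = 0.000268), where 10.3% of all genes were called (5.69% higher and 4.65% lower), and with shCDC73 hairpin 4 alone it was 0.27 (adjusted p = 0.0755). In EtOH, where 14.9% of all genes were called (8.34% higher and 6.59% lower), the differences were 0.24 ± 0.08 for CIP2A (adjusted p = 0.0274), 0.62 ± 0.17 for USP28 (adjusted p = 0.00839) and -0.31 ± 0.09 for FBXW7 (adjusted p = 0.0186), all with overlapping libraries.

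Some of the EtOH differences between the knockdowns ended without 1 library. That of CIP2A ended without EtOH shCTR9 hairpin 3 replicate 1 (adjusted p = 0.0813), shCTR9 hairpin 5 replicate 4 (adjusted p = 0.0549), shCDC73 hairpin 3 replicate 4 (adjusted p = 0.0779) or shCDC73 hairpin 4 replicate 4 (adjusted p = 0.0554). It also ended with shCTR9 hairpin 3 alone (adjusted p = 0.172) and with shCDC73 hairpin 4 alone (adjusted p = 0.111). The same held with replicate 1, 2 or 4 of all groups left out (adjusted p = 0.116, 0.0571 and 0.270). Without the 3 libraries that favour short transcripts it did not pass either (adjusted p = 0.124). The call of CIP2A was lost in 14 of 35 alternatives, that of FBXW7 in 9 and that of USP28 in 7. That of USP28 ended without replicate 2 of shCTR9 hairpin 3 (0.47, adjusted p = 0.0603), in fits of shCTR9 hairpin 3 alone (0.31, adjusted p = 0.415) or of CDC73's hairpin 4 alone (0.43, adjusted p = 0.132), and with replicate 2 or 3 of all groups left out (adjusted p = 0.0862 and 0.0917). That of FBXW7 held without any single library, but ended with replicate 1, 2 or 3 of all groups left out (adjusted p = 0.0591, 0.144 and 0.0800), with either shCTR9 hairpin alone (adjusted p = 0.0615 and 0.101) and with shCDC73 hairpin 4 alone (-0.22, adjusted p = 0.181). SKP2 did not pass in EtOH (-0.17 ± 0.08, adjusted p = 0.164), and its difference depended on the hairpin. With shCDC73 hairpin 4 alone it was -0.61 (adjusted p = 5.94e-06), with shCTR9 hairpin 3 alone it was -0.41 (adjusted p = 0.00667), and with shCDC73 hairpin 3 alone it was 0.28, in the other direction (adjusted p = 0.0443).

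In Dox, shCTR9 minus shCDC73 was -0.20 ± 0.08 for SKP2 (adjusted p = 0.115) and 0.48 ± 0.19 for USP28 (adjusted p = 0.0895), which did not pass. The SKP2 value passed with shCDC73 hairpin 4 alone (-0.59, adjusted p = 3.52e-05), with shCTR9 hairpin 3 alone (-0.46, adjusted p = 0.00458) and without Dox shCDC73 hairpin 3 replicate 2 (-0.25, adjusted p = 0.0403). That of USP28 passed without Dox shCDC73 hairpin 3 replicate 3 (0.60, adjusted p = 0.0426) or Dox shCTR9 hairpin 3 replicate 3 (0.56, adjusted p = 0.0495). For FBXW7 it was -0.24 ± 0.09 (adjusted p = 0.0849), and it passed without Dox shCTR9 hairpin 3 replicate 4 (-0.29, adjusted p = 0.0481). In EtOH, USP28 was 0.63 ± 0.22 higher with shCTR9 hairpin 5 than with hairpin 3 (adjusted p = 0.194), which passed without EtOH shCTR9 hairpin 3 replicate 2 (0.92, adjusted p = 0.0443).

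Other genes of MYC turnover were read from a list of 47 genes (SCF subunits and cofactors, other ligases, other deubiquitinases, kinases and phosphatases of the phosphodegron, and partners of HUWE1), of which 38 were tested. With Dox in shNTC cells 4 rose (FBXO32, AXIN1, CUL4A and RCHY1) and 3 fell (PIM1, AURKA and CUL4B), or 18.4%, against 17.4% of all genes. FBXO32, an F-box ligase best known for muscle wasting that has been reported to act on MYC, rose by 1.30 ± 0.27 (adjusted p = 0.000467; 0.49 ± 0.12 in shCTR9 cells, adjusted p = 0.00268), and PIM1, a kinase that stabilises MYC, fell by 0.92 ± 0.21 on the log2 scale (adjusted p = 0.00115). AURKA, a mitotic kinase, changed by -0.36 ± 0.08 (adjusted p = 0.00197). CUL4A and RCHY1 and the fall of CUL4B in shNTC cells were named after their values were seen. With Dox in shCTR9 cells 3 rose and 4 fell (18.4%, against 18.3% of all genes). In shCDC73 cells 2 rose and 4 fell (15.8%, against 17.5%). With Dox in shCTR9 and shCDC73 cells AXIN1, a scaffold that brings the kinase GSK3B to MYC, rose by 0.48 ± 0.08 and 0.50 ± 0.08 (adjusted p = 2.21e-05 and 1.02e-05). There CUL4B, a scaffold of another ligase family, changed by -0.50 ± 0.10 and -0.43 ± 0.09 (adjusted p = 9.55e-05 and 0.000726).

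In the knockdowns the list moved about as often as other genes did. In shCTR9 cells 8 of 38 rose and 8 fell in EtOH, and 5 rose and 9 fell in Dox, which is 42.1% and 36.8%. In shCDC73 cells 8 rose and 11 fell in EtOH, and 9 rose and 8 fell in Dox, which is 50% and 44.7%. Of all genes 45.6% and 41.8% were called in shCTR9 cells in EtOH and Dox, and 49% and 44.9% in shCDC73 cells. The medians of the list lay between -0.05 and 0.02. FBXO32 had the smallest p of the list in each of the 4 and rose by 2.24 ± 0.22 and 1.43 ± 0.17 in shCTR9 cells in EtOH and Dox (adjusted p = 5.35e-12 and 1.99e-09) and with shCDC73 by 2.65 ± 0.21 and 1.66 ± 0.17 (adjusted p = 5.99e-15 and 2.24e-11). USP13 had the next smallest p in each and changed by -1.68 ± 0.17 and -1.13 ± 0.18 in shCTR9 cells (adjusted p = 2.55e-11 and 1.46e-06) and with shCDC73 by -1.36 ± 0.17 and -1.13 ± 0.18 (adjusted p = 2.16e-09 and 1.43e-06).

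Of the 5 other deubiquitinases tested, 3 fell in shCTR9 cells in either treatment and in shCDC73 cells in Dox, and 4 fell in shCDC73 cells in EtOH. They were USP13, USP22 and USP2 (USP2, and USP22 outside shCTR9 cells in Dox, were named after their values were seen), and in shCDC73 cells in EtOH also USP37 (-0.35 ± 0.15, adjusted p = 0.0405). Of all genes 22.4% and 20.6% fell in shCTR9 cells in EtOH and Dox, and 24.6% and 22.7% in shCDC73 cells. USP22, a subunit of the SAGA coactivator, changed by -0.80 ± 0.17 in shCTR9 cells in Dox (adjusted p = 0.000311). Among SCF parts and the enzymes that activate them, UBE2R2, a relative of CDC34, fell by 0.28 ± 0.09 on the log2 scale with Dox in shCDC73 cells (adjusted p = 0.0198). UBA3, part of the enzyme that activates NEDD8, fell by 0.96 ± 0.21 on the log2 scale in shCDC73 cells in Dox (adjusted p = 0.000172). CDC34, the enzyme that hands ubiquitin to SCF ligases, rose in EtOH, by 0.99 ± 0.15 with shCTR9 and 0.93 ± 0.15 with shCDC73 (adjusted p = 9.81e-07 and 2.27e-06). CKS1B, the cofactor that SKP2 needs to bind p27, fell in shCDC73 cells, by 0.51 ± 0.20 in EtOH and 0.88 ± 0.21 in Dox on the log2 scale (adjusted p = 0.0344 and 0.000562), and did not pass in shCTR9 cells (adjusted p = 0.721 and 0.0714). ZBTB17, the MIZ1 protein that partners MYC and HUWE1, rose in EtOH by 0.49 ± 0.16 with shCTR9 and 0.69 ± 0.16 with shCDC73 (adjusted p = 0.0111 and 3e-04), and in Dox by 0.38 ± 0.15 with shCDC73 (adjusted p = 0.0337). CDKN2A, whose ARF product inhibits HUWE1, had no read in any library, which allows up to 3 counts in each.

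Cell cycle genes also changed in the knockdowns. Of 15 S phase genes tested, 12 fell and 1 rose in shCTR9 cells in EtOH, and 8 fell and 3 rose in shCDC73 cells in EtOH, with medians of -0.54 and -0.34. In Dox 11 fell and 2 rose in shCTR9 cells and 9 fell and 4 rose in shCDC73 cells. Of 16 G2 and M genes, 8 fell in shCTR9 and 9 in shCDC73 cells in EtOH and none rose, whereas in Dox 5 fell and 4 rose in shCTR9 cells and 6 fell and 2 rose in shCDC73 cells. Of all genes 22.4% and 24.6% fell in EtOH and 20.6% and 22.7% in Dox. The S phase genes summed to 2461 to 2953 CPM in the EtOH shCTR9 libraries and 2678 to 3660 CPM in the EtOH shCDC73 libraries, against 3462 to 3586 CPM in the EtOH shNTC libraries. With Dox in shNTC cells 11 of the 16 G2 and M genes fell, where 8.93% of all genes fell, while SKP2 and CIP2A did not pass. The part of the cell cycle in the changes of the 7 genes was not tested.

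RNAs of known protein substrates of these enzymes were listed too, for their own level only. Of 18 tested, 8 rose and 2 fell in shCTR9 cells in EtOH and 9 rose and 4 fell in shCDC73 cells in EtOH, and in Dox 8 rose and 2 fell and 10 rose and 2 fell. That is 55.6% and 72.2% called in EtOH and 55.6% and 66.7% in Dox, where 45.6%, 49%, 41.8% and 44.9% of all genes were called. CCNE1, the cyclin E1 that FBXW7 marks for degradation, rose by 0.62 ± 0.10 and 0.67 ± 0.10 in EtOH (adjusted p = 1.09e-06 and 1.49e-07). CDKN1B, which encodes p27, the substrate of SKP2, rose by 0.33 ± 0.12 and 0.58 ± 0.12 (adjusted p = 0.0209 and 5.95e-05), and with Dox in shNTC cells it fell by 0.67 ± 0.15 on the log2 scale (adjusted p = 0.00121). CCNE1 and CDKN1B were named after their values were seen.

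Across the 10 group means, the genes with the pattern most like each member were found among 8358 genes by Pearson's r of log2 CPM, over means that share libraries of 1 experiment. For USP36 they were ST3GAL1 (r = 0.984) and the pseudogene SINHCAFP2 (0.977), for SKP2 UBLCP1 (0.978) and AHCYL1 (0.977), and for USP28 the noncoding RNA PURPL (0.981) and TM7SF3 (0.956). For FBXW7 they were WDR74 (0.970) and TMEM158 (0.969), for HUWE1 PICALM (0.971) and POLQ (0.970), for FBXO28 TNKS (0.965) and BEND7 (0.947), and for CIP2A ZC3HC1 (0.967) and RAB3GAP2 (0.957). Over the 40 libraries the r of these pairs lay between 0.506 (CIP2A with RAB3GAP2) and 0.917 (USP36 with ST3GAL1).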

How the data were processed

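The authors deposited 1 table of read counts per gene for each of 40 libraries, unscaled as far as the file headers and values show. The submitters' processing notes name Bowtie, HISAT2, edgeR and hg19; which did what, in which version, with which gene models and strand setting is not given in the sources used. Of the 63152 Ensembl genes, 51662 were matched to a symbol (98.53% of reads), and exon lengths came from GENCODE v29. Genes that overlap a member had no reads, where listed.

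Counts were analysed with edgeR 4.0.16 in R 4.3.3 (limma 3.58.1; DESeq2 1.42.0 as an alternative). Genes kept by group (a count of at least 10 at median library size, 15 in total) numbered 12557, scaled by TMM, in 1 quasi-likelihood fit of all 40 libraries with a mean per group. Knockdown changes average both hairpins. Tests were two-sided, and p-values were adjusted over all genes for each of 15 comparisons. Replicate pairs differed beyond counting noise (chi-square per degree of freedom 1.07 to 10.3), and the fit was tested on simulated data. For Dox in shNTC cells it found 32.8% of simulated 1.5-fold changes, 71.6% of 2-fold and 93.9% of 4-fold changes. For shCTR9 and shCDC73 in EtOH it found 47.8% of 1.5-fold changes in each, and 80.6% and 83.6% of 2-fold changes. A gene that did not pass may thus have changed by such amounts.

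The members, gene lists and tests were chosen with earlier results of these data known. Named are the members, MYC, CTR9 and CDC73, the 3 called genes with the smallest p per comparison from the list on MYC turnover, some genes that share a role with a member, and the 2 genes most like each member with a mean of at least 20 CPM. Exceptions are stated, and 1 gene of the list is not reported here. The closing section gives the alternatives.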

Additional observations from a re-analysis of the deposited data

Results flagged for a closer look

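Among 70 sets of 4 libraries (7 genes in 10 groups), 4 held a library far from the others, about as many as the 1 in 20 that chance gives. All 4 were in shCTR9 hairpin 5 cells, and those of HUWE1 and USP28 in EtOH were the same library. HUWE1 had 166.5 CPM in replicate 1 in Dox (the others 277.0 to 290.4 CPM) and 181.1 CPM in replicate 1 in EtOH (278.8 to 295.5 CPM). FBXW7 had 67.79 CPM in replicate 4 in EtOH (53.07 to 55.16 CPM), and USP28 had 33.56 CPM in replicate 1 in EtOH (46.06 to 48.04 CPM).

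Knockdowns or hairpins differed by edgeR's test of the difference itself, on the log2 scale, in 9 cases. In EtOH, shCTR9 minus shCDC73 was -0.3116 for FBXW7, 0.621 for USP28 and 0.2417 for CIP2A, and in Dox it was 0.4173 for CIP2A. Hairpin 5 minus hairpin 3 of shCTR9 was 0.4867 in EtOH and 0.517 in Dox for SKP2. Hairpin 4 minus hairpin 3 of shCDC73 was 0.8859 in EtOH and 0.7767 in Dox for SKP2, and 0.9677 in Dox for USP28.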

How the results depend on the processing

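Over 59 alternative settings, 2971 of 3142 values kept their direction and their side of the threshold (also where neither passed), 105 no longer passed, 65 newly passed and 1 turned round. The cause of these moves was not tested, and fits of fewer libraries have less precision. DESeq2 called as many of the 7 genes as edgeR in each of the 15 comparisons. The 1 reversal was SKP2 in shCTR9 minus shCDC73 in EtOH, at 0.276 with shCDC73 hairpin 3 alone.

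Counts of the 7 genes called moved as follows. Each library name carries a letter A or B whose meaning is not stated. With letter A only, 1 was called for Dox in shNTC (FBXW7 did not pass, at 0.64, adjusted p = 0.0886), 4 and 3 for shCDC73 in EtOH and Dox, 0 and 0 for shCTR9 minus shCDC73 in EtOH and Dox, 0 and 0 for shCTR9 hairpin 5 minus 3, and 1 for shCDC73 hairpin 4 minus 3 in Dox. Over all genes this setting called 324 for Dox in shNTC (2187 in the main fit) and 3207 and 2889 for shCDC73 (6155 and 5641). It called 157 and 46 for shCTR9 minus shCDC73 (1875 and 1298). For shCTR9 hairpin 5 minus 3 it called 0 and 0 (74 and 35), and for shCDC73 hairpin 4 minus 3 in Dox 199 (1628). With letter B only, shCDC73 hairpin 4 minus 3 in Dox gave 0 (359 over all genes) and shCTR9 minus shCDC73 in EtOH 0 (599). There shCTR9 hairpin 5 minus 3 in EtOH and Dox gave 0 and 0 (3 and 0 over all genes). Calls lost with a value over 1.5 times smaller were, with letter A, CIP2A (-0.21, adjusted p = 0.317) in shCDC73 in Dox, and HUWE1 (-0.45, adjusted p = 0.547) and USP36 (0.11, adjusted p = 0.529) in shCDC73 in EtOH, and with letter B FBXO28 and FBXW7 as given above and USP28 (0.41, adjusted p = 0.622) in shCDC73 hairpin 4 minus 3 in Dox. With only the groups compared in the fit, shCTR9 minus shCDC73 gave 1 in EtOH and 2 in Dox (1011 and 1963 over all genes). In that setting shCTR9 hairpin 5 minus 3 in EtOH gave 0 (0 over all genes). With shCDC73 hairpin 4 alone, shCDC73 in Dox gave 3 (3670 over all genes) and shCTR9 minus shCDC73 in EtOH 1 (2224). With shCTR9 hairpin 3 alone shCTR9 minus shCDC73 gave 1 in EtOH (1119) and 2 in Dox (603). In Dox it gave 2 with shCTR9 hairpin 5 alone (859) and 3 with shCDC73 hairpin 3 alone (1897). Without the 3 libraries that favour short transcripts, a setting chosen with earlier results of these data known, Dox in shCTR9 gave 3 (2661 over all genes), its difference from shNTC 1 (156) and shCTR9 minus shCDC73 in Dox 3 (2062). With the within-group slope as a covariate, likewise, Dox in shCTR9 gave 2 (3412 over all genes), shCTR9 in Dox 4 (6344), and the differences of the Dox response 2 (shCTR9, 342) and 1 (shCDC73, 347). There shCTR9 minus shCDC73 in Dox gave 4 (2536), and hairpins 5 minus 3 and 4 minus 3 in EtOH gave 2 and 3 (581 and 5196). The main fit called 2304, 5246, 75, 59, 1298, 74 and 3920 genes in these comparisons.

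Leaving out in turn 1 library, or 1 replicate number of all groups, gave 1 to 2 for Dox in shCTR9, 3 to 6 for shCTR9 in EtOH, 2 to 3 for shCTR9 in Dox, 5 to 7 for shCDC73 in EtOH, 4 to 6 for shCDC73 in Dox, 0 to 1 for shCDC73 minus shNTC in the Dox response, 0 to 3 and 1 to 2 for shCTR9 minus shCDC73 in EtOH and Dox, 0 to 2 and 0 to 1 for shCTR9 hairpin 5 minus 3, and 1 to 2 for shCDC73 hairpin 4 minus 3 in Dox. Over all genes, Dox in shNTC called 2187, and 1303 to 1911 in those fits. They called 1467 to 2367 for Dox in shCTR9, 4694 to 5714 and 4134 to 5081 for shCTR9 in EtOH and Dox, and 5021 to 6219 and 4502 to 5501 for shCDC73. For shCTR9 minus shCDC73 they called 922 to 2048 and 498 to 1275, and for the shCDC73 difference of the Dox response 10 to 74. The hairpin comparisons gave 13 to 115 and 5 to 18 for shCTR9, and 867 to 1343 for shCDC73 in Dox.

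With the replicate number as a block, 6 of the 7 genes were called for shCTR9 in EtOH (4 without it), 3 for shCTR9 in Dox (2), 7 for shCDC73 in EtOH (7) and 6 for shCDC73 in Dox (5), and HUWE1 passed in Dox (-0.48 and -0.54, adjusted p = 0.0383 and 0.0190). Over all genes the block gave 6110, 5610, 6522 and 5971 calls in these comparisons (5729, 5246, 6155 and 5641 without it). Same-numbered libraries correlated with a median r of 0.0856 (lowest -0.224), where libraries of other numbers had -0.0214. Of the 40 libraries 27 were closest to their own number, more than an even spread over the 4 numbers would give. HUWE1 was lowest in replicate 1 in every Dox group and in the EtOH shNTC and shCTR9 groups. In the EtOH shCDC73 groups it was not. These are signs of pairing from the data, and whether HUWE1 passes in Dox depends on the choice. Not every pair correlated and no label gives a shared source, so the block was not used in the main fit. Depth limits USP28 most, with 12 to 62 reads a library.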
